A study of Mus musculus with 3 samples.

Results

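A set of 10 neuropeptide genes of the retina was followed across cell classes and 3 libraries of dissociated mouse retina: Vip, Npy, Tac1, Tac2, Sst, Cartpt, Cck, Penk, Crh and Sct. They were chosen by name, and 9 of the 10 were measured among the 24071 genes, since Crh was not analysed here. The study compared retinas of wild-type mice (WT), of mice without Tspan12 (KO), and of Tspan12 knockouts treated with F4L5.13 (KO + F4L5.13), all at postnatal day 26. Tspan12 is a tetraspanin that helps the Norrin receptor Fzd4 and its co-receptor Lrp5 to signal in retinal endothelial cells, and F4L5.13 is an agonist antibody for that receptor pair. Treated mice received 10 mg/kg of it by intraperitoneal injection on postnatal days 6, 9 and 12, followed by 4 mg/kg doses spaced 3 days apart. The strain label names the allele Tspan12tm1.2Hjug for all 3 samples, WT included. Magnetic beads carrying Annexin V and an antibody to CD73 had taken out dying cells and photoreceptors, so that class sizes were set in part by that step. There was 1 library per group, from a number of mice not given in the sources used here, so no difference between libraries has a replicate check, and every interval given covers counting error only.

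Neuropeptides are cut from larger precursors by proprotein convertases, stored in dense-core granules and released to act on G-protein-coupled receptors. In the retina they are known mainly from amacrine cells, interneurons of the inner retina that are mostly GABAergic or glycinergic and in which each peptide marks few types. Vip (vasoactive intestinal peptide), Npy (neuropeptide Y), Tac1 (substance P), Tac2 (neurokinin B), Sst (somatostatin), Cck (cholecystokinin), Penk (enkephalins) and Sct (secretin) each encode the precursor of the peptide in parentheses, and Cartpt encodes the CART peptides.

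A feature that several of these genes share outside the measurements is the cyclic AMP response element, the palindrome TGACGTCA, which CREB-family factors bind. RefSeq promoters (GRCm38.p6, 250 bases before to 50 after the start) were found for 8 of the 9 measured genes, all but Penk. Both strands were searched for TGACGTCA and for its core, TGACG, which lies within it. The whole element stood in 2 of the 8 promoters, against 1.79% of 32851 promoters, and the core in 5 of the 8, against 20.8%. Each stretch printed here holds the whole element, or the core nearest to the 5′ end of the window where there is no whole element, with the matching letters in capitals (TGACG reads CGTCA on the other strand). The stretches are shown because they set Cartpt, described at most length here, beside Sst, which also holds the whole element, and the 3 members that hold the core alone. A match is a description of the letters and was not tested as a site of binding.
Cartpt, chr13:99900768-99900815, minus strand, whole element: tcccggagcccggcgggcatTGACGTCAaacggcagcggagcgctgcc
Sst, chr16:23890865-23890912, minus strand, whole element: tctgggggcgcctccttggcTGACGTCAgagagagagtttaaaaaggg
Vip, chr10:5639119-5639166, plus strand, core: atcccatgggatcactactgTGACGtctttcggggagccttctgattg
Cck, chr9:121495714-121495761, minus strand, core: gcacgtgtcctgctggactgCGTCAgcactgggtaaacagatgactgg
Tac1, chr6:7554844-7554891, plus strand, core: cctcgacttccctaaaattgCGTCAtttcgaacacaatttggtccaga
The promoters of Npy, Tac2 and Sct held no TGACG. Cartpt itself lies at chr13:99898489-99901091 on the minus strand (GRCm38, GENCODE), and Sst at chr16:23889573-23890958 on the same strand. Both whole elements lie inside these spans, since the RefSeq start used for the window lies downstream of the GENCODE start.

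After filtering and removal of likely doublets, 5785 WT, 9357 KO and 8215 KO + F4L5.13 cells were kept, with medians of 14231, 6874 and 7556 reads per cell. Reads are the deposited estimated counts, rounded to whole numbers. Reads of Tspan12 itself stood at 26.8, 17.0 and 14.0 CPM (reads of a gene per 1000000 reads of the cells) in WT, KO and KO + F4L5.13, so that 3′ reads of the targeted gene were present in all 3 libraries. The labels do not name the deleted part of Tspan12, and these reads do not check the labels. Cells were clustered without the neuropeptide genes, and clusters were called amacrine-like, bipolar-like and so on from known markers. The amacrine-like class held 114 WT, 1169 KO and 130 KO + F4L5.13 cells, or 2.49%, 26.7% and 3.53% of the named cells other than photoreceptors. Most amacrine-like cells thus came from the KO library. Rods of the KO and KO + F4L5.13 libraries had a median of 3112.5 and 3039.5 reads per cell, against 13885.5 in WT. The libraries shared few cell barcodes, between 15 and 31 for any pair.

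A cell was counted as carrying a gene when it had at least 10 reads of it. By this count 1491 cells carried at least 1 neuropeptide gene: 466 in WT, 517 in KO and 508 in KO + F4L5.13. The carriers sorted by class, as the map of carrier shares shows. All 16 carriers of Vip were amacrine-like, as were 75 of the 90 carriers of Tac1, 19 of 20 of Tac2, 150 of 171 of Cartpt and 14 of 16 of Sct. Cck was instead a bipolar gene, with 991 of its 1022 carriers among bipolar-like cells. Npy was spread over 3 classes, with 95 Müller-like, 61 horizontal-like and 43 amacrine-like carriers among 217. Penk had 14 carriers, of which 5 were ganglion-like, 4 Müller-like and 3 amacrine-like. Sst had 1 carrier in all.

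**Figure D1:**
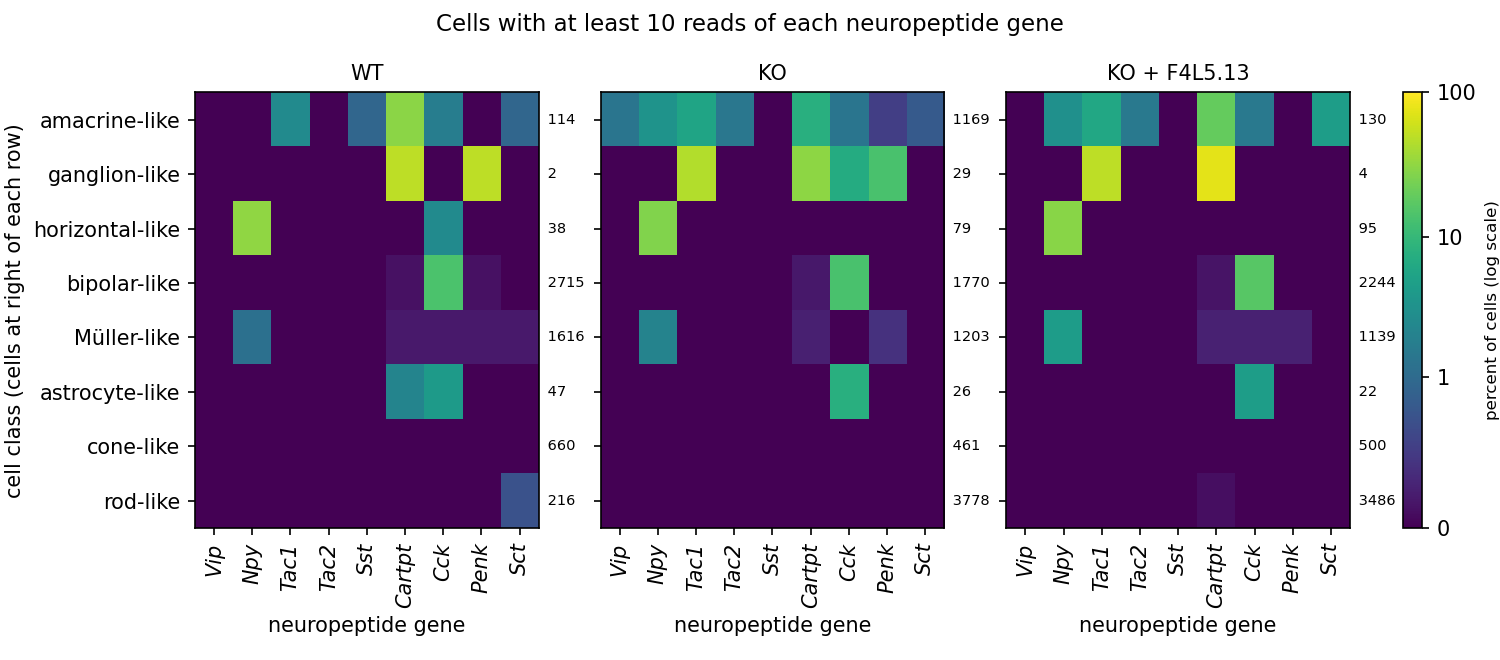
Percent of cells with at least 10 reads of each neuropeptide gene (columns) in each cell class (rows), 1 panel per library, on a colour scale that is logarithmic above its lowest step. The number of cells in each class stands at the right of its row. By share of cells, Cck is highest in the bipolar-like row and Npy in the horizontal-like row. Tac1, Cartpt and Penk have carriers in both the amacrine-like and ganglion-like rows. Vip, Tac2, Sst and Sct have carriers in the amacrine-like row and 0 in the ganglion-like row.

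Rods should lack these peptides and served as the background of free RNA. In rods no cell of the 3 libraries carried Vip, Npy, Tac1, Tac2, Sst, Cck or Penk, 1 of 3486 KO + F4L5.13 rods carried Cartpt, and 1 of 216 WT rods carried Sct. Cartpt reads in rods stood at 0, 11.3 and 7.22 CPM in WT, KO and KO + F4L5.13, Npy at 0.287, 3.55 and 1.12 CPM, and Sct at 4.88, 7.40 and 5.81 CPM. Levels near these values in other classes were not read as expression.

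In amacrine-like cells, 40 WT, 193 KO and 44 KO + F4L5.13 cells carried at least 1 of the genes, which is 35.1%, 16.5% and 33.8% of the class. Cartpt made up most of the WT and KO + F4L5.13 carriers, and its share was lower in KO. Vip, Npy, Tac1 and Tac2 had more reads in KO than in WT, but from few cells, and the shares of cells that carried them had overlapping intervals. A gene was counted as different between 2 libraries when its ratio of CPM was at least 2, the higher library had at least 30 molecule equivalents (reads divided by an estimate of the reads that 1 molecule gives, 2.77 in WT, 2.87 in KO and 3.19 in KO + F4L5.13), and the 95% counting interval of the ratio stayed beyond 1.5. By this rule 7 of 9 neuropeptide genes differed between KO and WT amacrine-like cells, 4 higher and 3 lower, beside 0.942% of 12424 genes, of which 0.539% were higher and 0.402% lower. Between KO + F4L5.13 and KO it was 4 of the 8 with enough reads, 1 higher and 3 lower, beside 0.974% of genes (0.274% higher and 0.7% lower), and between KO + F4L5.13 and WT 4 of 7, 2 each way, beside 0.943% (0.396% higher and 0.547% lower). The median log2 ratio of the members was 0.75, -0.08 and 0.25 in these comparisons, against 0.02, -0.00 and 0.02 over all genes with enough reads. The median of 0.75 was the value of Penk, which did not pass the rule. Penk stood at 0 CPM in WT, so its ratio was set by a limit of 3 molecule equivalents. Without the 5 richest cells of each library for each gene the count between KO + F4L5.13 and WT fell from 4 to 0. The comparisons share libraries and are given side by side only. The class was made of different clusters in each library: cluster 20 held 10 of 114 WT, 278 of 1169 KO and 21 of 130 KO + F4L5.13 cells, cluster 28 held 3, 179 and 4, and cluster 30 held 40, 116 and 17. An alternative added after the data were seen gave each amacrine-like cluster the same weight in all libraries, on means of CPM per cell. With it 7 members still passed between KO and WT, but 3 were higher and 4 lower. Tac1 changed direction, in part through 1 WT cell of cluster 28. Few cells held much of these reads: the 5 richest KO cells held 63.0% of the KO reads of Vip, 58.9% of Tac2, 46.8% of Tac1 and 37.4% of Npy.

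**Figure D2:**
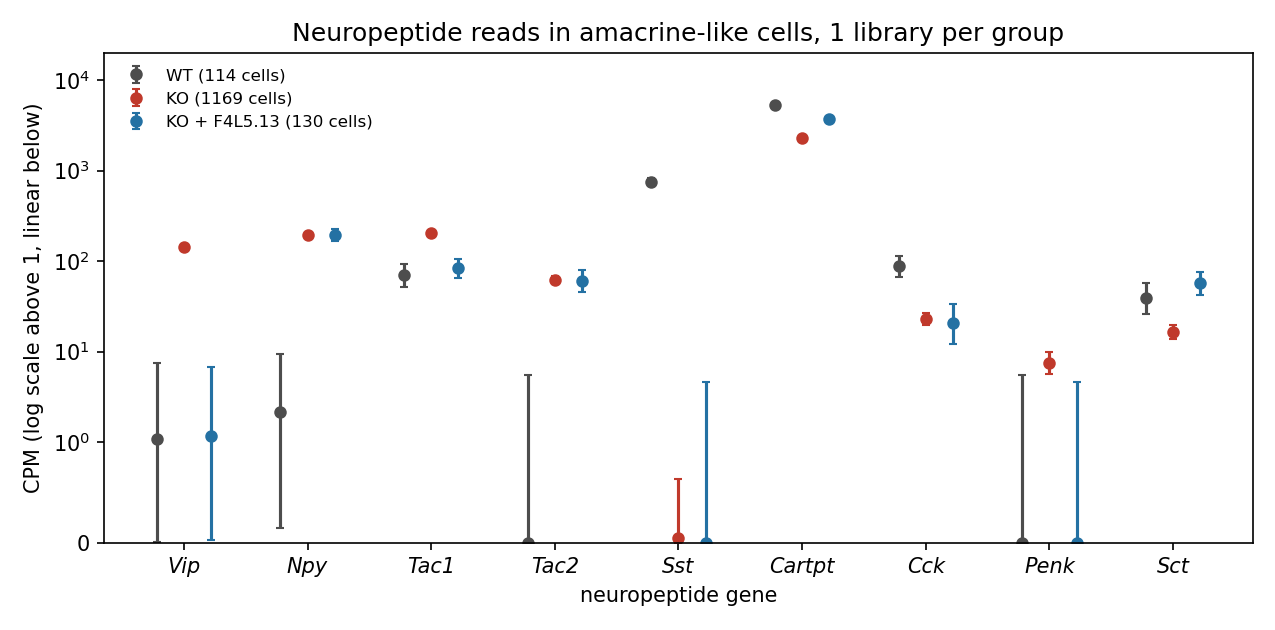
Level of each neuropeptide gene in amacrine-like cells (CPM, log scale above 1 and linear below), 1 point per library, with bars for the 95% counting interval. Vip is high in KO alone, Npy and Tac2 are low in WT alone, Sst is high in WT alone from 1 cell, and Cartpt is above 2000 CPM in all 3.

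Cartpt had the most amacrine-like carriers, 34 of 114 in WT (29.8%, exact 95% interval 21.6 to 39.1), 91 of 1169 in KO (7.78%, 6.31 to 9.47) and 25 of 130 in KO + F4L5.13 (19.2%, 12.8 to 27.1). Its level in the class was 5334, 2304 and 3714 CPM, so that KO was 2.32-fold below WT (2.23 to 2.40). Without the 5 cells richest in Cartpt in each library the ratio of KO to WT was 0.907 and no longer passed the rule. The carriers belonged to several separate groups of cells, which behaved differently across libraries.

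The first was a sub-cluster led by Slc35d3, Iyd and Sstr2, in which every cell carried Cartpt: 8 of 8 in WT, 43 of 43 in KO and 11 of 11 in KO + F4L5.13. Sstr2 encodes a somatostatin receptor. Cartpt reads per cell ran from 494 to 1694 around a median of 1005.5 in WT, from 63 to 1879 around 847 in KO, and from 377 to 1201 around 872 in KO + F4L5.13. The 3 libraries overlapped over most of their range. Summed over these cells the level was 50807, 45284 and 36883 CPM, a KO level 1.12-fold below WT (1.08 to 1.17) and a KO + F4L5.13 level 1.23-fold below KO (1.18 to 1.28).

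The second was an amacrine-like cluster led by Ebf3, a transcription factor, together with Nhlh2 and Prdm13, chosen for description after its values were seen. The cluster met 6 amacrine markers and also 3 ganglion markers. Its cells had Slc32a1, the vesicular transporter of GABA and glycine, at 506, 539 and 568 CPM in WT, KO and KO + F4L5.13. Gad1, which makes GABA, stood at 2.15, 8.31 and 0 CPM, and the glycine transporter Slc6a9 at 161, 91.4 and 153 CPM. In WT its 40 cells had 0 to 41 Cartpt reads around a median of 13, and 24 carried it (60.0%, 43.3 to 75.1). In KO its 116 cells had 0 to 6 reads around a median of 0, and none carried it, which allows a share of up to 2.59%. In KO + F4L5.13 its 17 cells had 0 to 44 reads around a median of 15, and 10 carried it (58.8%, 32.9 to 81.6). The KO cells thus lay below the carrier threshold throughout, while WT and KO + F4L5.13 overlapped. Median total reads of these cells were similar, at 11484, 13224 and 14500.

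The summed Cartpt level in the Ebf3-led cluster was 1324 CPM in WT, 17.3 in KO and 1074 in KO + F4L5.13. KO stood 76.5-fold below WT (39.2 to 172), the widest of the 86 differences that passed the rule among 3335 genes (2.58%). KO + F4L5.13 stood 62.1-fold above KO (30.8 to 143), the second widest of 44 that passed (1.32%). KO + F4L5.13 against WT was 0.812 (0.622 to 1.05) and did not pass, where 0.196% of genes did. At 17.3 CPM, Cartpt in the KO cells was close to its level in KO rods, 11.3 CPM.

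Some other genes of this cluster also differed between libraries, in either direction, and some did not. Ebf3 was alike at 461, 422 and 473 CPM in WT, KO and KO + F4L5.13, as was Nhlh2 at 736, 837 and 742 CPM. Ebf1, a relative of Ebf3, was lower in KO, at 641, 280 and 867 CPM. Sypl2 was higher in KO, at 6.44, 109 and 4.15 CPM, as was the GABA-making enzyme Gad2, at 55.8, 172 and 24.9 CPM. When amacrine-like cells were clustered on their own, all 40 WT cells and 14 of the 17 KO + F4L5.13 cells of this cluster fell into 1 sub-cluster that held no KO cell. A second sub-cluster held 108 KO cells, no WT cell and 1 KO + F4L5.13 cell. Lower Cartpt in 1 type and the sampling of different types by different libraries cannot be told apart with 1 library per group.

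**Figure D3:**
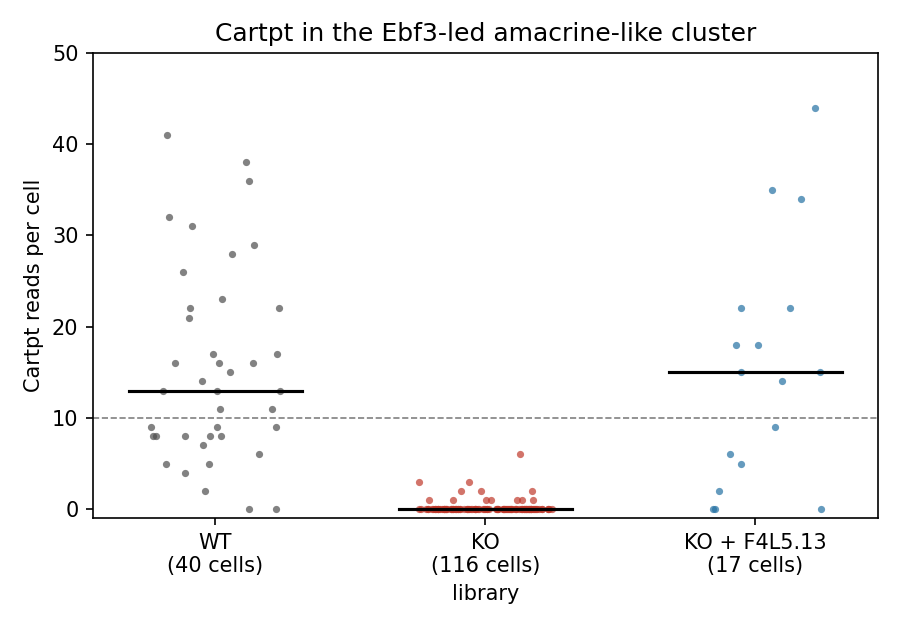
Cartpt reads in every cell of the Ebf3-led amacrine-like cluster, by library, with horizontal spread added for visibility. Black lines are medians (13, 0 and 15) and the dashed line is the threshold of 10 reads for a carrier. All 116 KO cells lie at 6 reads or fewer, and the WT and KO + F4L5.13 cells spread over the same range.

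Cartpt was also carried outside these groups. In a sub-cluster led by Etv1 and Cbln4, 18 of 46 KO cells and 2 of 3 KO + F4L5.13 cells carried it, and no WT cell fell there. In a sub-cluster led by Adra1b and C1ql3, 14 of 45 KO cells did. Another, with 10 Cartpt carriers, was led by the bipolar genes Scgn, Gng13 and Isl1 and had a median of 28004 reads. Whether its cells were doublets of amacrine and bipolar cells was not tested. Among ganglion-like cells, 1 of 2 in WT, 9 of 29 in KO and 3 of 4 in KO + F4L5.13 carried Cartpt, at 191, 1772 and 223 CPM. The 5 richest KO cells held 97.4% of those KO reads.

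Vip was read almost wholly from KO amacrine-like cells. It stood at 1.08 CPM in WT, from 2 reads in 1 cell, at 145 CPM in KO, and at 1.16 CPM in KO + F4L5.13, from 3 reads in 1 cell. KO was 134-fold above WT (19.1 to 18059), and KO + F4L5.13 was 124-fold below KO (21.3 to 6029). Carriers were 0 of 114 in WT, 16 of 1169 in KO (1.37%, 0.784 to 2.21) and 0 of 130 in KO + F4L5.13. The count of 0 allows up to 2.63% in WT and 2.31% in KO + F4L5.13, both above the KO share, so that a difference in the number of Vip cells was not detectable at this depth.

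Of the 16 Vip cells, 14 belonged to the sub-cluster led by Etv1, Cbln4 and Pappa2, which held 46 KO cells, 3 KO + F4L5.13 cells and no WT cell. Within it 30.4% of KO cells (17.7 to 45.8) carried Vip, with up to 413 reads in a cell. Vip cells had reads of Gad2 and Slc32a1 in 100% and of Gad1 in 93.8%, while the glycine transporter Slc6a9 was read in 1 of the 16. The secreted synapse protein Cbln4 was read in 100% of Vip cells and in 2.55% of KO amacrine-like cells without a Vip read. By these markers the Vip cells were GABAergic.

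Npy was carried by GABAergic amacrine-like cells as well. Its level in the class was 2.16 CPM in WT, from 4 reads, 193 in KO and 195 in KO + F4L5.13. KO was 89.7-fold above WT (20.5 to 1348), and KO + F4L5.13 against KO was 1.01 (0.850 to 1.19). The latter rested on few cells, and without the 5 richest cells of each library it was 0.0323. Carriers were 0 of 114 in WT, 39 of 1169 in KO (3.34%, 2.38 to 4.53) and 4 of 130 in KO + F4L5.13 (3.08%, 0.845 to 7.69). The interval of the KO + F4L5.13 share held that of KO, and the WT count of 0 allows 2.63%. All 43 amacrine-like Npy carriers had reads of Gad1 and Slc32a1, and none had reads of Slc6a9. They were found in the sub-cluster led by Adra1b and C1ql3 (17 of 45 KO cells and 2 of 2 KO + F4L5.13 cells) and in one with Qrfpr and Fezf2 (18 of 67 KO cells and 1 of 1 KO + F4L5.13 cell). WT had 1 and 2 cells in these sub-clusters. Over the 24 amacrine-like sub-clusters of at least 20 cells, the genes with the pattern most like Npy among 18651 were Bcar3, Lbhd2 and Fezf2, with Pearson r of 0.812, 0.804 and 0.746 on log2(CPM + 1). These sub-clusters share libraries and depth, and Bcar3 and Lbhd2 reached no more than 6.29 and 6.22 CPM in any of them.

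Tac1 was read in all 3 libraries. Its amacrine-like level was 70.6, 206 and 83.9 CPM in WT, KO and KO + F4L5.13. KO was 2.91-fold above WT (2.18 to 3.98) and KO + F4L5.13 was 2.45-fold below KO (1.92 to 3.18), while KO + F4L5.13 against WT was 1.19 (0.807 to 1.76). Carriers were 3 of 114 (2.63%, 0.546 to 7.50), 64 of 1169 (5.47%, 4.24 to 6.94) and 8 of 130 (6.15%, 2.69 to 11.8), so that the shares overlapped. With each amacrine-like cluster given the same weight in all libraries, KO against WT turned to 0.471 and KO + F4L5.13 against WT to 0.284, and KO + F4L5.13 against KO was 0.603 and no longer passed. As a mean of CPM per cell, KO against WT was 1.58 and did not pass either. The reweighted ratios against WT rest in part on WT cluster 28, whose 3 cells stood at 1468 CPM, with 1 carrier of 50 reads. Values without that cell were not computed.

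In a sub-cluster led by Pax2 that all libraries shared, Tac1 reads per cell ran from 0 to 30 around 5.5 in 6 WT cells, from 0 to 47 around 4 in 55 KO cells, and from 0 to 15 around 12 in 5 KO + F4L5.13 cells. Those ranges overlapped, and KO against WT was 0.725 (0.468 to 1.17). The richest Tac1 cells lay in the Adra1b-led sub-cluster, where 26 of 45 KO cells carried it with up to 763 reads. Tac1 carriers had reads of Slc32a1 in 100% and of Gad1 in 96.0%. The genes most like Tac1 over sub-clusters were Susd2, Nsg2 and Eif4g3, with r of 0.745, 0.710 and 0.705. Among ganglion-like cells 13 of 29 in KO and 2 of 4 in KO + F4L5.13 carried Tac1, at 437 and 450 CPM, and neither of the 2 WT cells did.

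Tac2 had 0 reads in WT amacrine-like cells, 62.0 CPM in KO and 61.0 in KO + F4L5.13. Against a limit of 3 molecule equivalents in WT, and at the lower bound of the counting interval, KO was at least 11.2-fold higher and KO + F4L5.13 at least 10.7-fold higher. Carriers were 0 of 114, 17 of 1169 (1.45%, 0.849 to 2.32) and 2 of 130 (1.54%, 0.187 to 5.45), and the WT count of 0 allows 2.63%. Of the 17 KO carriers 15 were in the Adra1b-led sub-cluster, which had 1 WT cell. Tac2 cells had reads of Gad1 in 89.5%.

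Sst, whose peptide somatostatin is known from sparse, wide-field retinal amacrine cells, rested on 1 cell. That WT cell had 1395 Sst reads among 68906 (2.02%), and the next highest cell of any library had 5. It had 13 reads of Gad1, 33 of Slc32a1 and 0 of Slc6a9, as well as 0 of Npy, Tac1, Tac2 and Cartpt. The amacrine-like levels were 752, 0.0502 and 0 CPM in WT, KO and KO + F4L5.13. The KO level, from 1 read, was 14971-fold lower (1184 to 2.89e+08), and this passed the rule but rests on a single WT cell.

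Sct was carried by the cells with the gap junction gene Gjd2. Of its 14 amacrine-like carriers, 13 lay in a sub-cluster with Gjd2 and the dopamine receptor genes Drd2 and Drd4 among its leading genes, and all 14 had reads of Gjd2 and Slc32a1. Gad1 was read in 2 of the 14 and Slc6a9 in 6. In that sub-cluster Sct reads per cell ran from 0 to 20 around 3 in 22 WT cells, from 0 to 14 around 0 in 156 KO cells, and from 0 to 13 around 5 in 27 KO + F4L5.13 cells. The ranges overlapped, and 72.7%, 46.2% and 81.5% of the cells had at least 1 read. The level was 226, 95.7 and 291 CPM, so that KO stood 2.36-fold below WT (1.47 to 3.65) and KO + F4L5.13 3.05-fold above KO (2.08 to 4.39). KO + F4L5.13 against WT was 1.29 (0.778 to 2.18). Median total reads were 14373, 19341 and 17582, highest in KO. Over the whole amacrine-like class Sct stood at 39.4, 16.5 and 57.5 CPM. There the rule was passed by KO + F4L5.13 against KO, 3.48-fold higher (2.42 to 4.93), and not by KO against WT, 2.38-fold lower, since the nearer bound of its interval fell just short of 1.5.

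Penk was scarce. Its amacrine-like level was 0, 7.53 and 0 CPM, with 3 KO carriers, and KO + F4L5.13 was at least 1.59-fold below KO at the lower bound of the counting interval against a limit of 3 molecule equivalents. At that limit itself the fold was 2.03, which passed the rule by little, and with cells thinned to 5000 reads the ratio turned to 1.98. Ganglion-like carriers were 1 of 2 in WT, 4 of 29 in KO and 0 of 4 in KO + F4L5.13. In Müller-like cells Penk stood at 2.34, 7.11 and 1.24 CPM from 1, 2 and 1 carriers. KO was 3.04-fold above WT there (1.96 to 4.84) and KO + F4L5.13 5.72-fold below KO (2.98 to 12.2), the 1 of 3 members past the rule in the latter, beside 3.35% of genes. In KO 5 cells held 92.9% of the reads. In Müller-like cells 2 of the 3 members with enough reads passed the rule between KO and WT, Penk and Cartpt, beside 4.59% of genes. Cartpt there was 27.3, 5.50 and 2.71 CPM, and 1 WT cell held 821 of the 935 WT reads.

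Npy outside amacrine cells was carried by many cells at low level. In horizontal-like cells, the interneurons that feed back onto photoreceptors, Npy reads ran from 0 to 50 around 5 in 38 WT cells, from 0 to 63 around 5 in 79 KO cells, and from 0 to 66 around 5 in 95 KO + F4L5.13 cells. The libraries overlapped fully. The level was 155, 158 and 145 CPM, and KO against WT was 1.02 (0.809 to 1.28). Carriers made up 31.6%, 26.6% and 29.5%. These cells were deep, with medians of 58815, 56394 and 68416 total reads, so that 10 reads of Npy were a smaller part of a horizontal-like cell than of an amacrine-like one.

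In Müller-like cells, the radial glia of the retina, Npy stood at 37.1 CPM in WT, 37.3 in KO and 65.8 in KO + F4L5.13. Carriers numbered 19 of 1616 (1.18%), 25 of 1203 (2.08%) and 51 of 1139 (4.48%). KO + F4L5.13 was 1.76-fold above KO (1.55 to 2.01) and 1.78-fold above WT (1.57 to 2.01), below the 2-fold rule over the class, while KO against WT was 1.01 (0.880 to 1.15). The higher level in KO + F4L5.13 was seen in both Müller-like clusters that were well filled in that library. In the first, cluster 1, it was 41.1, 24.2 and 76.4 CPM from 1263, 64 and 619 cells, and in cluster 3 it was 28.2, 36.2 and 56.9 CPM from 332, 376 and 337 cells. Cluster 5 held most of the KO Müller-like cells, and there KO and KO + F4L5.13 lay closer together. Its level was 9.10, 39.5 and 49.3 CPM from 17, 683 and 82 cells. In cluster 1 KO + F4L5.13 was 3.16-fold above KO (1.85 to 5.85), which passed the rule as 1.4% of genes did, and 1.86-fold above WT (1.59 to 2.17), which did not, where 0.59% of genes did. In cluster 3 it was 2.02-fold above WT (1.57 to 2.60), which passed as 0.693% of genes did, and 1.57-fold above KO (1.26 to 1.96), which did not, where 2.13% of genes did. Median total reads of Müller-like cells were 19205, 26344 and 22560, so that the KO + F4L5.13 cells were deeper than WT and shallower than KO. The part of depth in these Npy values was not tested.

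Cck was carried in some bipolar-like clusters and scarcely in others. Bipolar cells relay photoreceptor signals to the inner retina. Over the bipolar-like class Cck stood at 325, 273 and 345 CPM, with 380 of 2715 WT cells (14.0%), 244 of 1770 KO cells (13.8%) and 367 of 2244 KO + F4L5.13 cells (16.4%) carrying it. KO against WT was 0.841 (0.801 to 0.883) and KO + F4L5.13 against KO 1.26 (1.20 to 1.33), neither past the rule, and rods stood at 1.11 to 1.41 CPM. Cartpt, the other member with enough reads, was 2.19-fold higher in KO than in WT bipolar-like cells (3.99 and 8.75 CPM). It was the 1 of 2 that passed, beside 2.63% of genes, and at 8.75 CPM it lay below its level in KO rods.

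The highest shares of Cck carriers were in a cluster (number 10) with Cdc25c and the bipolar transcription factor Vsx1 among its leading genes. There 165 of 194 WT cells (85.1%, 79.2 to 89.8), 74 of 114 KO cells (64.9%, 55.4 to 73.6) and 120 of 143 KO + F4L5.13 cells (83.9%, 76.9 to 89.5) carried it. Reads per cell ran from 0 to 87 around 29 in WT, from 0 to 67 around 18 in KO and from 0 to 118 around 28 in KO + F4L5.13. The ranges overlapped, but the interval of the KO share lay below both others. The level was 3062, 2088 and 2711 CPM, 1.47-fold lower in KO than in WT (1.35 to 1.59), with 1.30-fold more in KO + F4L5.13 than in KO (1.19 to 1.42). Median total reads were 9823.5, 9597 and 11672.

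A small cluster (number 42) led by Igfn1, Wnt4 and Vsx1 had the same order, at 1351, 765 and 992 CPM with 11 of 11, 10 of 16 and 15 of 17 carriers. In cluster 14, with the kainate receptor subunit gene Grik1 among its leading genes, the level was 476, 489 and 469 CPM, and KO against WT was 1.03 (0.911 to 1.15). In cluster 12, led by Igfn1 and Reln, it was 499.7, 446 and 643 CPM, and in cluster 16, led by Erbb4 and Irx6, 278, 277 and 430 CPM. In clusters 12 and 16 it was KO + F4L5.13 that stood above the other libraries, 1.44-fold (1.29 to 1.61) and 1.56-fold (1.29 to 1.89) above KO. The same held in cluster 34, led by Cpne9 and Lrp1b, at 338, 276 and 574 CPM, where KO + F4L5.13 was 2.08-fold above KO (1.36 to 3.29), short of the rule by its lower bound. The lower KO level of clusters 10 and 42 was therefore not seen in cluster 14 or 16.

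**Figure D4:**
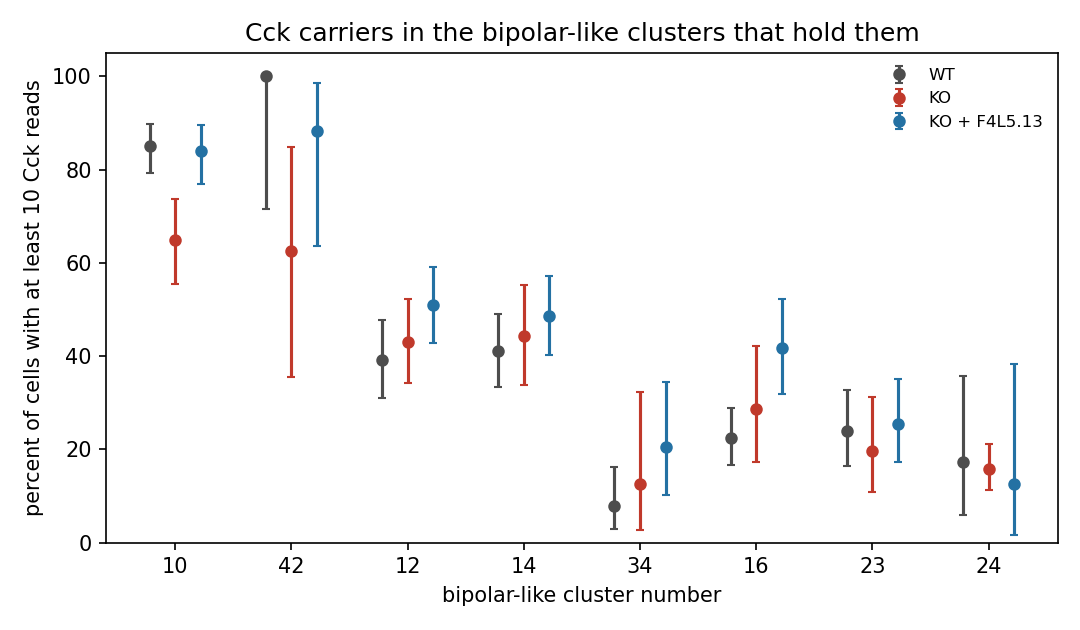
Percent of cells with at least 10 Cck reads in the bipolar-like clusters that hold Cck carriers, by library, with exact 95% binomial intervals. Clusters 10 and 42 have the highest shares, and in cluster 10 the KO share of 64.9% lies below the WT share of 85.1% and the KO + F4L5.13 share of 83.9%.

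Few amacrine-like cells carried Cck: 2, 16 and 2 in WT, KO and KO + F4L5.13, at 87.3, 22.9 and 21.0 CPM. KO was 3.81-fold below WT (2.78 to 5.18), but 1 WT cell held 111 of the 162 WT reads, and without the 5 richest cells of each library the ratio of KO to WT turned to 22.8. Neurod6 is a transcription factor of amacrine cells that use neither GABA nor glycine. In a sub-cluster led by it, 7 of 31 KO cells and 1 of 2 KO + F4L5.13 cells carried Cck. Ppp1r17, the other marker listed for those cells, stood at 32.0 CPM there, beside Neurod6 at 112 CPM. Another sub-cluster had more of both, at 2569 and 183 CPM, and 0 Cck carriers. Whether the Cck cells were of that type was not tested. Astrocyte-like cells had 2, 2 and 1 carriers, at 27.6, 52.7 and 15.8 CPM.

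Most carriers had 1 neuropeptide gene each. Of the 1491 carriers, 54 had 2 or more: 2 in WT, 48 in KO and 4 in KO + F4L5.13, of which 43 were amacrine-like, 10 ganglion-like and 1 bipolar-like. Vip overlapped with Cartpt in 11 cells, 68.8% of the Vip carriers and 6.43% of the Cartpt carriers. Tac2 was rarely alone: 60.0% of its carriers also carried Tac1, 50.0% Cartpt and 45.0% Npy, which is 13.3% of the Tac1 carriers, 5.85% of the Cartpt carriers and 4.15% of the Npy carriers. Tac1 and Cartpt met in 24 cells, 16 amacrine-like and 8 ganglion-like. Npy and Tac1 met in 14 cells, all amacrine-like, or 6.45% and 15.6% of their carriers. No cell carried both Npy and Cck, and neither Sct nor Sst met another member.

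Cells with 3 members numbered 14 and cells with 4 members 4. All 4 were KO cells of 1 amacrine-like cluster (number 20) that carried Npy, Tac1, Tac2 and Cartpt together, with a median of 36000 total reads. Among KO amacrine-like cells with 3 members, the 5 with Tac1, Tac2 and Cartpt had a median of 47932 reads and the 4 with Npy, Tac1 and Cartpt 21180. With 2 members, the 9 cells with Vip and Cartpt had a median of 21321 reads and the 3 with Cartpt and Cck 40822. The 5 with Npy and Tac1 had 21109, the 3 with Npy and Tac2 29111 and the 3 with Tac1 and Tac2 12515. The median of all KO amacrine-like cells was 16334. Of the combinations given here, only that of Tac1 and Tac2 lay below it. The part of depth in these combinations, like that of doublets not removed, was not tested.

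**Figure D5:**
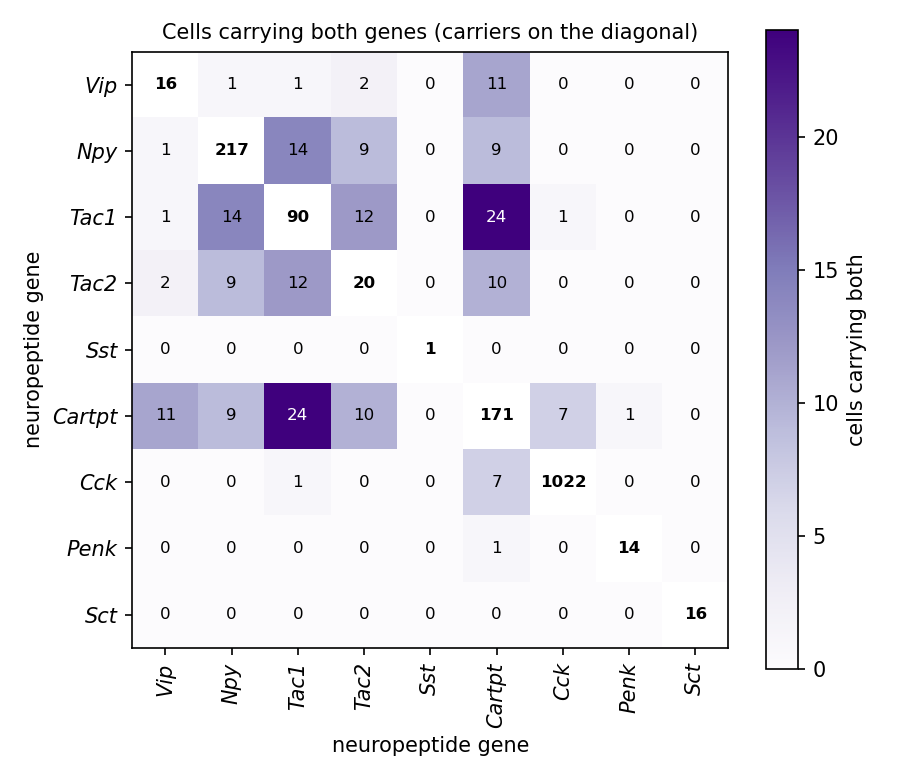
Number of cells, all libraries added up, that carry both genes of each pair at 10 reads or more, with the carriers of each gene on the diagonal. Tac1 with Cartpt (24), Npy with Tac1 (14), Tac1 with Tac2 (12) and Vip with Cartpt (11) hold the most cells, while the rows of Sst and Sct hold none off the diagonal.

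Receptors for these peptides lay partly in other classes. Of 22 receptor genes listed 16 were measured. Vipr2, the second Vip receptor, was highest in bipolar-like cells and there in a cluster led by Htr3a, with 242 CPM and reads in 72.5% of cells. Tacr3, the neurokinin B receptor, was highest in a bipolar-like cluster in which it was a leading gene, with 169 CPM and reads in 74.8%. Tacr1, the substance P receptor, was highest in an amacrine-like cluster, at 63.6 CPM, and Cckbr, a Cck receptor, in cones, at 72.0 CPM. Sstr2 was highest in the amacrine-like cluster that held the Slc35d3-led cells, at 177 CPM, and Sstr2 was among the genes most like Cartpt over sub-clusters (r of 0.832), after Syt10 (0.865) and before Nr4a2 (0.776). The corticotropin-releasing hormone receptor Crhr1 was highest in the Ebf3-led cluster, at 56.2 CPM.

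Receptor and processing genes were compared in amacrine-like cells by the same rule. Between KO and WT 1 of the 5 receptors with enough reads passed, beside 0.942% of genes: Vipr2 was 4.85 CPM in WT and 25.7 in KO, 5.29-fold higher (1.85 to 23.8), and 14.0 CPM in KO + F4L5.13. Between KO + F4L5.13 and KO it was also 1 of 5, beside 0.974% of genes: Sstr2 was 22.0 CPM in KO and 62.5 in KO + F4L5.13, 2.85-fold higher (2.03 to 3.94), and 41.5 CPM in WT. Of 13 genes for peptide processing and dense-core granules, none of the 12 with enough reads passed between KO and WT or between KO + F4L5.13 and KO. The granule protein Scg2, at 391 CPM in WT, 542 in KO and 811 in KO + F4L5.13, was the 1 of 11 that passed between KO + F4L5.13 and WT, 2.07-fold higher (1.79 to 2.40), beside 0.943% of genes. KO against WT was 0.917 for the convertase Pcsk2 (0.739 to 1.15) and 1.22 for the carboxypeptidase Cpe (1.08 to 1.38). Of 16 further peptide genes 14 were measured, and none of the 3 with enough amacrine-like reads passed in either comparison with KO.

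In bipolar-like cells 3 of the 4 receptors with enough reads passed between KO and WT, beside 2.63% of genes. Tacr3 was higher in KO, at 5.77, 41.3 and 4.01 CPM in WT, KO and KO + F4L5.13, and the Tacr3-rich cluster held 29, 229 and 16 cells of these libraries. Npy1r was lower in KO, at 3.05, 0.490 and 3.40 CPM, as was Tacr1, at 6.05, 0.867 and 7.94 CPM. The same 3 passed with the opposite sense between KO + F4L5.13 and KO, where 2.85% of genes did.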

How the data were processed

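Retinal cells of 3 groups, 1 library each, had been prepared with papain and 10x Genomics 3′ chemistry. The authors deposited 1 table per library of estimated counts, neither scaled nor logged, for 6092, 10769 and 9835 barcodes in WT, KO and KO + F4L5.13. Per the submitters' processing notes, Partek 9.0 and the build mm10 were used, and the role of each, the aligner and the counting are not given in the sources used here. In the files 2.33% to 2.40% of values were not whole (tolerance 0.001), and values were rounded. No sign was found that molecules had been collapsed, so the values are called reads and were divided by the reads per molecule equivalent for intervals and minimums.

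Barcodes with at least 500 genes and at most 20% mitochondrial reads were kept, and 4.87%, 8.62% and 7.87% of them were left out as likely doublets by a neighbour score with simulated doublets, at a fixed rate of 0.8% per 1000 barcodes. Cells were clustered with Leiden (leidenalg 0.10.2, igraph 0.11.9) at resolution 1 on 15 neighbours and 40 components of 2000 variable genes (numpy 2.4.6, scipy 1.17.1, scikit-learn 1.9.0, pandas 2.3.3, Python 3.11.15). The members were left out of those genes. Clusters with mixed markers or of low depth stayed unnamed, 327, 740 and 546 cells. CPM is reads of a gene per 1000000 reads of all genes in the cells of a class.

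No test across libraries is possible with 1 library per group. Ratio intervals are exact conditional binomial and shares have exact binomial (Clopper-Pearson) intervals, both at 95% and both for counting error only. A count of 0 was given a limit of 3 counts. Counts above 0 but below that limit were kept, so the largest folds of Vip, Npy and Sst rest on values below it. With 1 library per group the ratio rule could not be checked against variation between libraries. All members are named. From the receptor, processing and other peptide lists the named genes are those past the ratio rule in amacrine-like cells, with Pcsk2 and Cpe chosen after their values were seen, and for receptors the highest class. For members with at least 30 amacrine-like carriers the 3 genes of most similar pattern are named. Clusters and sub-clusters described beside a member were chosen after its values were seen. The members and lists were chosen with earlier results of these data known. Sequences are from RefSeq and gene positions from GENCODE, both GRCm38. Alternatives covered the filter, doublets, rounding, depth, resolution, weighting, thresholds and rich cells.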

Additional observations from a re-analysis of the deposited data

How the results depend on the processing

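The counts of members that differed in amacrine-like cells were compared over 12 alternatives each. Between KO and WT the count of 7 stayed between 5 and 8. Between KO + F4L5.13 and KO the count of 4 fell to 2 at a fold of 3 with a bound of 2 and to 2 with cells thinned to 5000 reads. Between KO + F4L5.13 and WT the count of 4 fell to 0 without the 5 richest cells of each library and to 2 with thinned cells. Some ratios changed direction. With the same cluster mix in all libraries, added after the data were seen, Tac1 turned to 0.471 for KO against WT and 0.284 for KO + F4L5.13 against WT, Cck to 2.90 and Tac2 to 3.81 for KO + F4L5.13 against KO. Without the 5 richest cells Cck turned to 22.8 for KO against WT and Npy to 0.0323 for KO + F4L5.13 against KO. For KO + F4L5.13 against KO, Tac2 turned to 5.10 as a mean of CPM per cell and to 5.57 with thinned cells, and Penk to 1.98 with thinned cells. The Tac1 values with the same cluster mix rest in part on 1 WT cell of cluster 28. The cause of the changes in direction was not tested.

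Carriers of at least 1 member in WT, KO and KO + F4L5.13 numbered 806, 1053 and 911 at a threshold of 3 reads, 223, 232 and 222 at 30 reads, and 184, 206 and 143 with thinned cells. Carriers of at least 2 members numbered 19, 99 and 22 at 3 reads, 0, 28 and 2 at 30 reads, and 0, 24 and 1 with thinned cells. In the Ebf3-led cluster the share of Cartpt carriers was 60.0 percentage points higher in WT than in KO and 58.8 higher in KO + F4L5.13 than in KO. These differences were 12.5 and 17.6 at 30 reads and 24.3 and 21.4 with thinned cells, and kept their direction in all alternatives that gave a value. At resolution 0.5 no cluster consisted mostly of these cells. No paired analysis was possible because each group had 1 library, and for the same reason no replicate could be left out. Depth limits the rare genes most: with 114 WT and 130 KO + F4L5.13 amacrine-like cells, shares below about 2.63% and 2.31% can go unseen.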
